A study of Mus musculus with 12 samples.

Results

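Female mice with an Angelman syndrome (AS) genotype were compared with wild-type (WT) females across the autosomes. The comparison uses 6 of the 12 libraries of the series, chosen by their labels, 3 labelled AS female and 3 labelled WT female. Of 13951 genes in the deposited table, 13219 are autosomal, and 13054 of these passed the filter on low values (a mean deposited value of at least 0.7) and were tested. Each library comes from 1 mouse and holds polyadenylated RNA of the right hippocampus, of which the ventral portion was dissected. All mice were of the C57BL/6J strain and 12 to 16 weeks old. The labels give neither the mutation of the AS mice nor the parent that passed it on, and no treatment is named. The other 6 libraries, 3 AS males and 3 WT males, enter the model as a source of the spread between mice and serve here only for the comparison of the sexes. The title of the series asks how the AS genotype affects females and males. The female comparison describes differences by genotype in females, and no autosomal gene passed adjustment for the number of genes tested.

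Angelman syndrome is a neurodevelopmental disorder that arises when the maternally inherited UBE3A gene is lost or inactive; its product is a ligase that attaches ubiquitin to proteins. In neurons the paternal copy is silenced by imprinting, so loss of the maternal copy leaves little UBE3A protein, while other brain cells can use both copies. The ventral hippocampus contains pyramidal cells, dentate granule cells and several classes of GABA-releasing interneurons, and takes part in circuits of emotion and stress. The choroid plexus lies next to it in the lateral ventricle, and a dissected piece can carry some of that tissue.

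Values are given on the deposited log scale, read as the natural log of an abundance plus 1. A difference is AS minus WT on that scale, and the ratio of abundance plus 1 that belongs to it holds only if the log is natural. Errors on differences are standard errors of the limma model with 3 mice per group. A gene counted as called where its p, adjusted by the Benjamini-Hochberg method across the tested genes of all chromosomes, was under 0.05. The labels do not say whether mice came from separate litters, so the p-values measure the spread between these mice alone. Replicates are numbered in accession order and the numbers pair nothing.

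Sex-linked transcripts did not match the label of 1 library. Xist, the RNA that silences an X chromosome, was at 0.243 in the library labelled WT female 1, against 4.16 to 4.47 in the other 5 female libraries and 0.116 to 0.360 in the males. The Y-linked genes Eif2s3y and Ddx3y were at 0.474 and 0.707 in that library, within the female range of 0.210 to 0.747 and 0.140 to 0.965, and below the male range of 3.98 to 4.20 and 2.81 to 3.01. That library therefore goes against its label for Xist and not for the Y-linked genes. Medians without it are given below for the main gene groups. Other lists described with their median have it where the 2 differed by over 1.5 times. Lists named only in the closing sections moved that far too. Small RNAs went from 0.111 to -0.015, oligodendrocyte precursors from -0.018 to 0.024 and mural cells from -0.030 to 0.00655. Thalamus went from -0.029 to -0.090, dorsal hippocampus from -0.0055 to 0.00335 and the TRiC chaperonin from -0.0022 to -0.0080. Markers of the labelled tissue were present: all 16 listed genes of pyramidal neurons were tested, and Slc17a7, the vesicular glutamate transporter of these cells, lay between 5.82 and 6.11 in the 6 female libraries.

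Ttr, which encodes transthyretin, the thyroid hormone carrier made by the choroid plexus, varied more within each genotype than between them. Ttr (ENSMUSG00000061808, chromosome 18, 20665280 to 20674321, plus strand, GRCm38) was at 2.91, 8.08 and 4.28 in AS females 1 to 3 and at 7.58, 8.12 and 4.50 in WT females 1 to 3. The high libraries were AS female 2, the library labelled WT female 1 and WT female 2, and the groups overlapped. Means were 5.09 ± 2.68 in AS and 6.73 ± 1.95 in WT (SD, n = 3), a difference of -1.64 (exact two-sided permutation p = 0.4, where 0.1 is the smallest p this design allows). Between the lowest and the highest of the 6 libraries the abundance differed 193-fold. The males lay between 1.61 and 6.41.

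**Figure D1:**
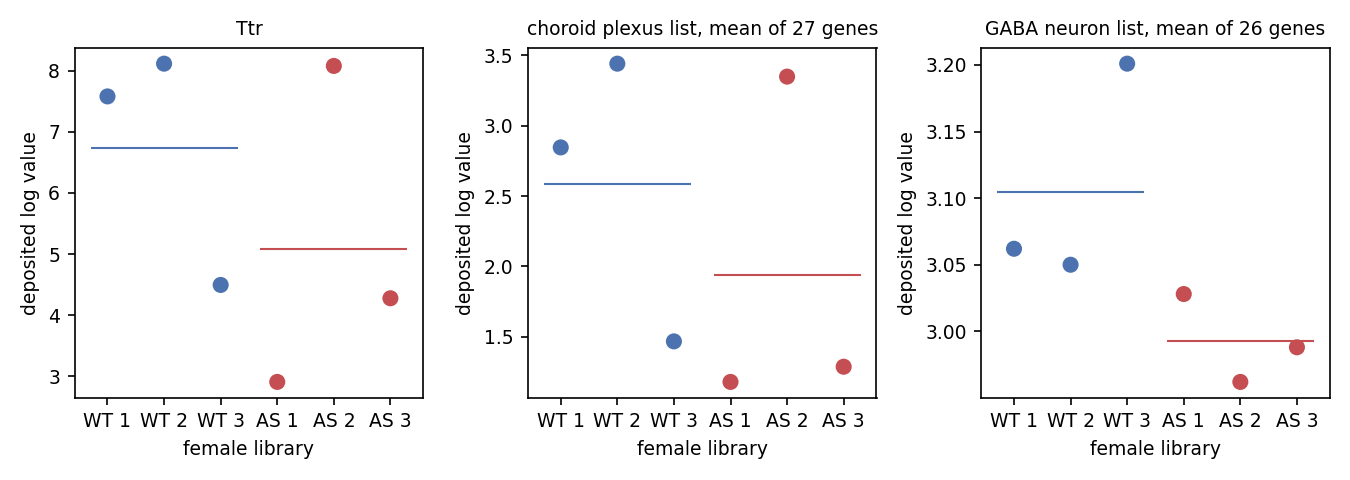
Deposited log values in the 6 female libraries (WT blue, AS red, lines are group means) of Ttr, of the mean over 27 choroid plexus genes and of the mean over 26 genes of GABA neurons; each panel has its own vertical axis, which does not start at 0. WT 1, WT 2 and AS 2 are high in Ttr and in the choroid plexus mean, whereas the GABA neuron mean is 2.96 to 3.03 in AS and 3.05 to 3.20 in WT.

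No autosomal gene was called in females (0 of 13054, percent called 0). An unadjusted p under 0.05 was reached by 401 genes (3.07%), of which 189 (1.45%) were higher and 212 (1.62%) lower in AS. The smallest unadjusted p was 0.000414 and the smallest adjusted p was 1. In 1182 genes (9.05%) the 3 AS and the 3 WT values did not overlap, with 663 (5.08%) higher and 519 (3.98%) lower in AS. In most of these genes the groups lay close together: the median gap between the nearest AS and WT libraries was 0.0265 for the higher and 0.0302 for the lower genes.

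Differences were small for most genes. The median difference over all tested autosomal genes was 0.0034, the median absolute difference was 0.0511 and the median standard error 0.0771. A difference above 0 was found in 51.7% of genes and below 0 in 48.3%. In 95% of genes the absolute difference was below 0.225. It reached 0.25 in 513 genes (3.93%), 0.5 in 127 (0.973%) and 1 in 34 (0.26%). Of the 127 genes with at least 0.5, 25 had groups that did not overlap, 13 higher and 12 lower, and of the 34 with at least 1 only 8 did, 1 higher and 7 lower. Spread widened toward low values: the median absolute difference was 0.0836 in genes with a mean under 1.8, 0.0459 from 1.8 to 4 and 0.0354 at 4 or more. The share of genes with an unadjusted p under 0.05 was 3.42%, 3.17% and 1.94% in those ranges.

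**Figure D2:**
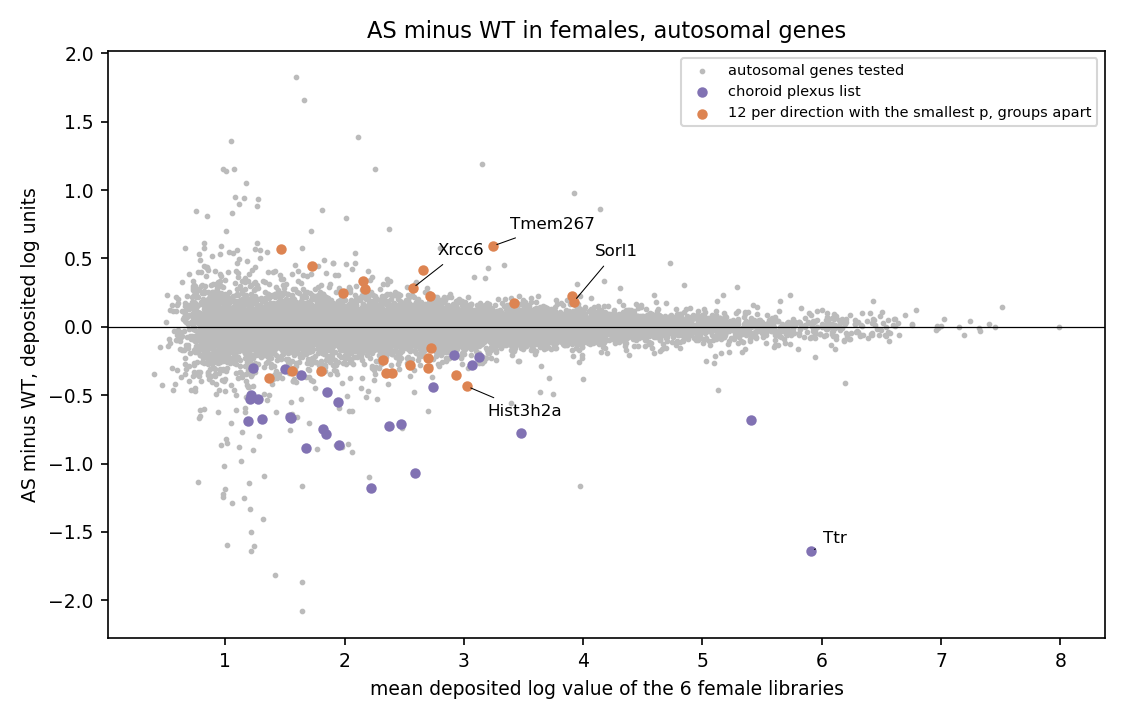
Each point is an autosomal gene, with its mean deposited log value in the 6 female libraries on the horizontal axis and AS minus WT on the vertical axis. All 27 choroid plexus genes (purple) lie below 0, down to -1.64 for Ttr. Predicted genes and pseudogenes aside, the 24 genes with the smallest p and groups that do not overlap (orange) lie between -0.435 and 0.592.

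Predicted genes and pseudogenes aside, Xrcc6, Sorl1 and Get4 led the genes higher in AS females by p. Only genes with groups that did not overlap were ranked, and none was called. Xrcc6 encodes Ku70, which binds broken DNA ends (ENSMUSG00000022471, chromosome 15, 81987835 to 82040085, plus strand). It was at 2.79, 2.68 and 2.67 in AS females 1 to 3 and at 2.42, 2.38 and 2.49 in WT females 1 to 3. The groups lay 0.177 apart, with AS female 1 the highest. The difference was 0.283 ± 0.060 (unadjusted p = 0.000563, adjusted p = 1), a ratio of 1.33, and stayed between 0.245 and 0.315 with each female library left out. Among 18 tested genes of double-strand break repair 11 were higher and 7 lower. Xrcc5, which encodes Ku80, the partner of Ku70, had a difference of -0.134 ± 0.081 with overlapping groups.

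Sorl1 encodes a receptor that sorts the amyloid precursor protein between endosome and Golgi (ENSMUSG00000049313, chromosome 9, 41964720 to 42124297, minus strand). Its values were 4.06, 3.95 and 4.04 in AS and 3.86, 3.82 and 3.81 in WT females. All AS libraries were above all WT libraries, and AS female 2 was the nearest to WT. The difference was 0.185 ± 0.039 (unadjusted p = 0.000564, adjusted p = 1). Of 15 tested genes of this receptor family and of the retromer, which carries its cargo, 6 were higher and 9 lower. Sorcs3, a neuronal member of the family, was at 2.52, 2.52 and 2.59 in AS and at 2.44, 2.41 and 2.29 in WT, a difference of 0.163 ± 0.056 (unadjusted p = 0.0142). Its groups did not overlap either.

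Get4 encodes a factor that hands tail-anchored proteins on for insertion into the endoplasmic reticulum (ENSMUSG00000025858, chromosome 5, 139252324 to 139270051, plus strand). It was at 3.50, 3.48 and 3.55 in AS and at 3.33, 3.34 and 3.33 in WT, with WT libraries close together and all below AS. The difference was 0.173 ± 0.038 (unadjusted p = 0.000732, adjusted p = 1). Tmem267, a membrane protein gene (ENSMUSG00000074634, chromosome 13, 119488039 to 119611059, plus strand), had the widest difference among the 12 named by p in this direction. It was at 3.62, 3.35 and 3.65 in AS and at 2.65, 2.90 and 3.29 in WT. The WT libraries spread widely, and WT female 3 came within 0.0593 of the lowest AS library. The difference was 0.592 ± 0.158, a ratio of 1.81.

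The remaining genes with the smallest p that were higher in AS had differences between 0.226 and 0.567. Tmem254c, at 0.567 ± 0.147, has near-identical neighbouring copies that the counting could split. Zdhhc18, which encodes an enzyme that attaches palmitate to proteins, was at 3.03, 2.56 and 3.01 in AS and at 2.47, 2.47 and 2.42 in WT. Its AS value in female 2 was close to WT. Abca2, a lipid transporter of oligodendrocytes, had a difference of 0.226 ± 0.063, Doc2a, a calcium sensor of vesicle release, 0.338 ± 0.096, and Cd83, a glycoprotein of the immune system, 0.274 ± 0.079. Arap1, which switches off small GTPases of the Arf family, was 0.445 ± 0.130 higher, Baz2b, a bromodomain protein of chromatin, 0.226 ± 0.066 and Mrnip, a protein of DNA repair, 0.250 ± 0.073. None of these was called, and the adjusted p was 1 for each.

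**Figure D3:**
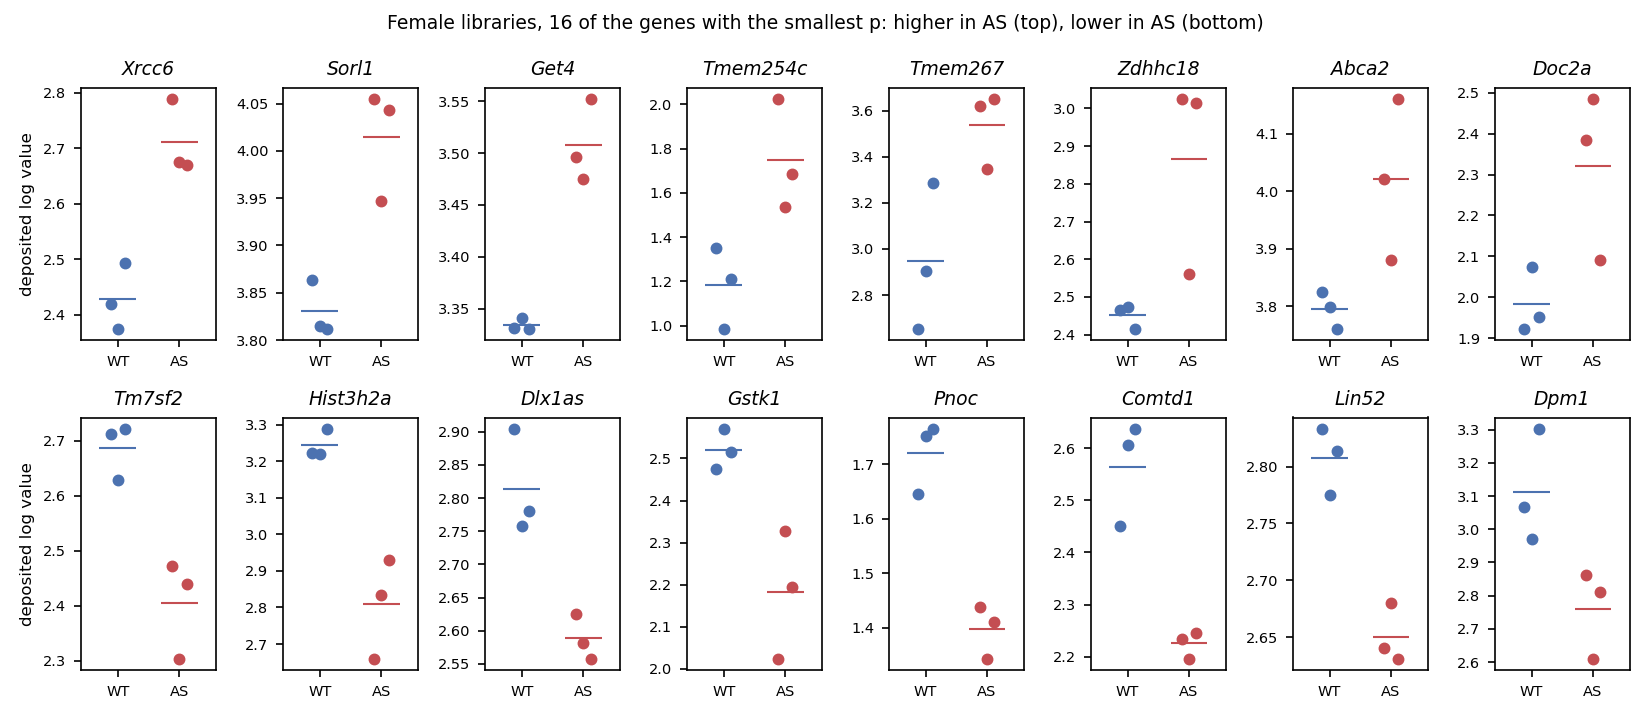
Deposited log values of 16 of the genes with the smallest p in the 3 WT (blue) and 3 AS (red) female libraries, 8 higher in AS (top row) and 8 lower (bottom row), with lines at group means. Each panel has its own vertical axis that does not start at 0; the genes were selected for small p and for groups that do not overlap, so the separation in the panels is part of the selection.

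The ranking by size left out predicted genes and pseudogenes. Among these was the 1 higher gene with groups apart and a difference of at least 1. Among the other genes with groups that did not overlap, the widest differences toward AS often rested on low values or on a single library. Itgb4, an integrin subunit, was at 1.62, 1.29 and 1.82 in AS and at 1.17, 1.05 and 0.811 in WT. Usp18, the protease that removes the interferon-induced modifier ISG15, was at 0.986, 2.04 and 0.968 in AS and at 0.892, 0.869 and 0.830 in WT. AS female 2 stood above the other 5, and the difference of 0.469 ± 0.240 was 0.114 without it. Scarna6, a small RNA of Cajal bodies, had a difference of 0.518 ± 0.190 with the highest value, 1.63, in AS female 3. Dynlt1a, a dynein light chain with near-identical copies, had 0.485 ± 0.163, and Hba-a1, an alpha globin gene of red cells that also has a close copy, 0.465 ± 0.367.

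Genes lower in AS females with the smallest p included a sterol enzyme, a histone and a neuropeptide precursor. Tm7sf2, a sterol reductase of cholesterol synthesis (ENSMUSG00000024799, chromosome 19, 6062821 to 6068373, minus strand), was at 2.47, 2.30 and 2.44 in AS and at 2.71, 2.63 and 2.72 in WT. Its groups lay 0.156 apart and the difference was -0.282 ± 0.062 (unadjusted p = 0.000700, adjusted p = 1). Lss, another enzyme of that pathway, had the opposite sign at 0.203 ± 0.073, and of 22 tested cholesterol genes 14 were higher and 8 lower.

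Hist3h2a, an H2A histone gene (ENSMUSG00000078851, chromosome 11, 58954685 to 58956830, plus strand), was at 2.66, 2.84 and 2.93 in AS and at 3.22, 3.22 and 3.29 in WT. The groups lay 0.289 apart, and the 3 WT libraries were nearly level. The difference was -0.435 ± 0.104 (unadjusted p = 0.00136, adjusted p = 1), a ratio of 0.647. Pnoc, the precursor of the neuropeptide nociceptin found in interneurons (ENSMUSG00000045731, chromosome 14, 65400673 to 65425472, minus strand), was at 1.44, 1.34 and 1.41 in AS and at 1.65, 1.75 and 1.77 in WT. All AS values were below all WT values, by 0.209 or more. The difference was -0.324 ± 0.081 (unadjusted p = 0.00196, adjusted p = 1).

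Comtd1, a methyltransferase gene, was at 2.23, 2.20 and 2.25 in AS and at 2.45, 2.61 and 2.64 in WT, a difference of -0.339 ± 0.088. Nmbr, the receptor of the peptide neuromedin B, was at 1.25, 1.24 and 1.06 in AS and at 1.66, 1.37 and 1.65 in WT, a difference of -0.373 ± 0.101. In neither gene did the groups overlap, and in Nmbr WT female 2 came closest to AS. Dlx1as, transcribed opposite to the interneuron gene Dlx1, had a difference of -0.225 ± 0.054; the library kit named in the labels does not mark strand, so reads of the overlapping genes cannot be told apart. The others were Gstk1, a glutathione transferase, at -0.338 ± 0.081, Lin52, a cell cycle regulator, at -0.157 ± 0.041, Dpm1, which supplies mannose for glycosylation, at -0.353 ± 0.092, Cd302, a lectin, at -0.246 ± 0.065 and Snhg5, a host of small nucleolar RNAs, at -0.303 ± 0.081.

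Predicted genes and pseudogenes aside, the widest differences toward WT among genes with groups that did not overlap came mainly from low values. Of the 7 lower genes with groups apart and a difference of at least 1, only Snord22 stayed in this ranking. Snord22, a small nucleolar RNA, was at 4.36 in WT female 2 and between 0.149 and 0.883 in the other 5 female libraries. Without WT female 2 its difference went from -1.64 to -0.48. Baiap2l2, a membrane-bending protein of cell protrusions, was at 0.502, 0.310 and 0.527 in AS and at 1.04, 1.09 and 1.22 in WT, a difference of -0.668 ± 0.243. Eya2, a cofactor of transcription, was at 0.807, 1.12 and 0.640 in AS and at 1.42, 1.30 and 1.71 in WT, a difference of -0.620 ± 0.191. Both genes kept their groups apart by 0.184 or more. Atad3aos and Ccdc142os, at -0.766 ± 0.383 and -0.605 ± 0.172, overlap other genes on the opposite strand and could not be told apart from them, while Samd15 had -0.443 ± 0.151 and Zbbx -0.415 ± 0.155.

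A test of whether the genotype difference itself departed between the sexes called no autosomal gene (0 of 13054, percent called 0), and 481 (3.68%) had an unadjusted p under 0.05. For Sorl1 the difference was -0.083 ± 0.039 in males against 0.185 ± 0.039 in females (unadjusted p of the difference between the sexes 0.000463, adjusted p = 0.988). For Get4 it was -0.103 ± 0.038 against 0.173 ± 0.038 (unadjusted p = 0.000277), and for Comtd1 0.230 ± 0.088 against -0.339 ± 0.088 (unadjusted p = 0.000682). In these 3 genes the sign was opposite in the sexes, without passing the adjusted threshold. They were selected by their difference in females, which enters this test, so its unadjusted p-values are biased low for them. Of the 24 named genes with the smallest p in females, 18 had the same sign in males and 6 the opposite. Of the 18, 6 had an unadjusted p under 0.05 in males: Tmem254c (0.611), Hist3h2a (-0.287), Nmbr (-0.284), Cd302 (-0.217), Dlx1as (-0.169) and Mrnip (0.164). With the opposite sign, Get4 (-0.103) and Comtd1 (0.230) also had an unadjusted p under 0.05 in males. The matching shares over all genes were not computed, so these counts have no baseline.

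Ube3a itself differed by less than its error. It was at 2.89, 2.95 and 2.74 in AS and at 3.01, 2.84 and 2.98 in WT females (ENSMUSG00000025326, chromosome 7, 59228750 to 59311536, plus strand). The groups overlapped, with a difference of -0.086 ± 0.091 (unadjusted p = 0.367, 95% interval -0.286 to 0.114). The value covers the whole gene and the mutation is not given, so it does not check the genotype labels. Of 11 tested genes of the imprinted region and its flanks 4 were higher and 7 lower, with a median of -0.028, which was -0.052 without AS female 2. Among 25 transcripts of reported substrates and partners of UBE3A 17 were higher and 8 lower, with a median of 0.013, which was 0.0061 without the library labelled WT female 1. Cdkn1b, a cell cycle inhibitor among them, was -0.116 ± 0.053 (unadjusted p = 0.0505).

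Transcripts of GABA neurons were lower in AS for 23 of 26 tested genes (28 listed), against 48.3% of all autosomal genes below 0. The median difference was -0.095, against 0.0034 over all genes. In 10 of them the groups did not overlap, all lower, and 5 had an unadjusted p under 0.05, also all lower; the shares over all genes were 3.98% and 1.62%. None was called. In a bulk sample fewer cells of a type and less RNA per cell cannot be told apart. The mean over the list was 3.03, 2.96 and 2.99 in AS and 3.06, 3.05 and 3.20 in WT. Every AS library thus lay below every WT library, and WT female 3 stood highest. Male libraries of both genotypes ranged from 2.97 to 3.12. WT female 3 was also the highest female library for the ventral hippocampus list mean (2.84, the others 2.38 to 2.72). It was the lowest for dentate granule genes (1.935, the others 2.09 to 2.33). The part of the regional make-up of the piece in the GABA neuron difference was not tested.

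Dlx1, a transcription factor of interneuron development, was at 3.06, 2.96 and 3.06 in AS and at 3.21, 3.12 and 3.37 in WT, a difference of -0.204 ± 0.064. Crhbp, which binds the stress peptide CRH, was at 3.03, 2.92 and 2.92 in AS and at 3.06, 3.12 and 3.32 in WT, a difference of -0.209 ± 0.074. In both genes the groups did not overlap and WT female 3 was the highest. Reln, the secreted guidance protein reelin, was at 2.79, 2.91 and 2.86 in AS and at 3.03, 3.11 and 3.22 in WT, a difference of -0.271 ± 0.105. Dlx6os1, a noncoding RNA of the Dlx locus, had -0.237 ± 0.099. Calb2, the calcium-binding protein calretinin, was at 3.72, 4.02 and 3.70 in AS and at 4.20, 4.06 and 4.32 in WT, a difference of -0.378 ± 0.162. Calb2 marks both interneurons and mossy cells, and it was also on the ventral hippocampus list, 7 of whose 11 tested genes were lower. In males its difference was 0.319 (unadjusted p of the difference between the sexes 0.0108).

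The GABA neuron median was -0.112 with Ttr as a covariate, and -0.110 without the library labelled WT female 1. The 3 libraries with low Ttr are AS females 1 and 3 and WT female 3, so every comparison within them has a single WT library; for GABA neurons, in which WT female 3 was the highest, the median there was -0.161. With all others and without WT female 3 the median was -0.042, and from 16 to 25 of the 26 genes were lower with each library left out in turn. In males the median was -0.021 with 14 of 26 lower. Pyramidal neuron genes had 11 of 16 higher with a median of 0.0325, and dentate granule genes 7 of 12 with a median of 0.027, neither with a gene at an unadjusted p under 0.05. Both medians turned with a single library: without WT female 3 they were -0.0016 and -0.024, and without the library labelled WT female 1 0.071 and 0.145. In males they were -0.096 and -0.042. Astrocyte genes had 16 of 20 lower with a median of -0.046.

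Chaperones and folding enzymes of the endoplasmic reticulum (ER) were lower in AS for 20 of 22 genes, with a median of -0.108. Only Canx and Calr had an unadjusted p under 0.05 and only Dnajc10 had groups that did not overlap, so 2 of 22 and 1 of 22 stand beside 1.62% and 3.98% of all genes in that direction. Canx encodes calnexin and Calr calreticulin, lectins that hold glycoproteins during folding. Canx was at 5.17, 5.32 and 5.22 in AS and at 5.34, 5.30 and 5.43 in WT, a difference of -0.121 ± 0.052. Calr was at 5.58, 5.82 and 5.76 in AS and at 5.94, 5.94 and 5.77 in WT, a difference of -0.160 ± 0.071. The lowest library was AS female 1 in both, and the groups overlapped. Dnajc10, a disulfide reductase, had -0.126 ± 0.058 and P4hb, a protein disulfide isomerase, -0.094 ± 0.044.

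Many ER chaperone genes share a promoter element, the ER stress response element, and the stretches that carry it are shown because nearly all members of the list lay on the same side of 0. The element was searched as CCAAT and CCACG with 9 bases of any kind between them, on both strands, in the 250 bases before and 50 bases after each RefSeq start (GRCm38.p6). It was found in 39 of 32851 promoters (0.119%) which belong to 37 of 27025 genes (0.137%), and in 7 of the 17 ER chaperone genes that matched the table (41.2%). Those 7 are Calr, Canx, Creld2, Dnajc3, Hsp90b1, Hspa5 and Pdia6. Of them Creld2 was higher in AS, at 0.029 ± 0.120, and the others had differences below 0. Because many ER chaperone genes share the element, its frequency in the list is not a result about genotype. A match is a description of the letters and not a measured site. The 250 bases before the start of Canx (chr11:50325674-50325923, minus strand), Calr (chr8:84846932-84847181, minus strand) and Hsp90b1 (chr10:86705445-86705694, minus strand) follow, 5′ to 3′ along the gene, with the fixed letters of each match in capitals.
Canx: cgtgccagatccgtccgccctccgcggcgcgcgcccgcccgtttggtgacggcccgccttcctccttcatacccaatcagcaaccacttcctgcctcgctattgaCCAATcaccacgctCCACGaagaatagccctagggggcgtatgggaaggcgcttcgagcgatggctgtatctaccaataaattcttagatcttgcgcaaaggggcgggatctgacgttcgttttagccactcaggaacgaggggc
Calr: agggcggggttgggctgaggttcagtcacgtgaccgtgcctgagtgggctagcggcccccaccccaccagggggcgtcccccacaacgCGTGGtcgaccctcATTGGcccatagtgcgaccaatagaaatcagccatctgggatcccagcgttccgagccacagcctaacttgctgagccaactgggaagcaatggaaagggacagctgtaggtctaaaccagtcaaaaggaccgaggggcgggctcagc
Hsp90b1: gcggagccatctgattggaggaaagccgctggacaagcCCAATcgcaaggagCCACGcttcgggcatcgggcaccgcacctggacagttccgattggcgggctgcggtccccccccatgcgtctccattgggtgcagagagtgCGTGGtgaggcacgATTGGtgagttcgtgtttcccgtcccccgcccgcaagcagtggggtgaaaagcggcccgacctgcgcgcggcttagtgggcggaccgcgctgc

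The matched letters alone of the other 4 genes are given for comparison with those above, each with its first base relative to the start.
Hspa5, from -65: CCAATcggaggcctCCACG
Pdia6, from -98: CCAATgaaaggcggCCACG
Dnajc3, from -105: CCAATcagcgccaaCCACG
Creld2, from -126: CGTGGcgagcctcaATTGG
Canx starts at -145 and Calr at -162, and Hsp90b1 holds 2 matches, with the first at -212. Calr and Creld2 carry the element on the opposite strand. Hsp90b1, which encodes the ER chaperone GRP94 and was named after its values were seen, was at 5.14, 5.39 and 5.19 in AS and at 5.41, 5.48 and 5.38 in WT, a difference of -0.183 ± 0.093 with overlapping groups.

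The ER chaperone median was -0.042 with Ttr as a covariate and -0.061 in the 3 libraries with low Ttr. It was -0.076 without the library labelled WT female 1 and lay between -0.137 without AS female 2 and -0.048 without WT female 2 with each female library left out, with 17 to 21 of 22 genes lower. The list mean was 3.75, 3.91 and 3.79 in AS and 3.95, 3.99 and 3.80 in WT, and the 3 libraries high in Ttr, AS female 2 and the libraries labelled WT females 1 and 2, were also the 3 highest here. The part of the choroid plexus in the list's difference was not tested beyond these values. Cytosolic and mitochondrial heat shock genes had 21 of 25 lower with a median of -0.032, which was -0.018 without WT female 3, and none reached an unadjusted p under 0.05. The heat shock element (GAA, TTC and GAA, or TTC, GAA and TTC, each with 2 bases between, both strands) was in promoters of 3 of 20 of these genes (15%), against 179 of 27025 genes (0.662%) and 198 of 32851 promoters (0.603%), and in 0 of the 17 ER chaperone genes. Hspd1 and Hspe1, among the 3, share an overlapping stretch read from opposite strands.

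Histone genes were lower in AS for 17 of 22, with a median of -0.068. Of these, 4 had an unadjusted p under 0.05, all lower, against 1.62% of all genes, and 5 lower and 1 higher had groups that did not overlap, against 3.98% and 5.08% of all genes. Hist2h2be was at 1.62, 1.60 and 1.56 in AS and at 1.74, 1.79 and 1.75 in WT, a difference of -0.168 ± 0.072. Hist3h2ba was at 2.69, 2.71 and 2.90 in AS and at 2.95, 2.99 and 3.04 in WT, a difference of -0.231 ± 0.104. Hist1h2bc had -0.121 ± 0.055. All 3 are H2B genes whose groups did not overlap, and together with Hist3h2a they make up the 4. Histone genes are close copies of each other, so the counting could split reads between them. The median was -0.074 with Ttr as a covariate, -0.099 without the library labelled WT female 1, -0.128 without AS female 2 and -0.056 without WT female 2 as the extremes with each library left out, and -0.135 in males, where 17 of 22 were lower.

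Genes of the synaptic vesicle cycle were higher in AS for 25 of 28, with a median of 0.050, against 51.7% above 0 and 0.0034 over all genes. In 7 the groups did not overlap, all higher, against 5.08% of all genes, and none had an unadjusted p under 0.05. Synj1, a phosphatase that uncoats vesicles, was at 4.96, 5.01 and 5.02 in AS and at 4.95, 4.94 and 4.88 in WT, a difference of 0.073 ± 0.036. Pclo, the active zone scaffold piccolo, was at 3.69, 3.61 and 3.69 in AS and at 3.58, 3.57 and 3.57 in WT, a difference of 0.089 ± 0.047. Both genes had AS above WT in every library by a narrow margin. Dnm1, the dynamin of vesicle fission, had 0.103 ± 0.057 and Syt7, a calcium sensor, 0.130 ± 0.083. The median lay between 0.038 and 0.064 with each female library left out, was 0.030 with Ttr as a covariate and -0.011 in males.

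Glutamate receptor genes had 18 of 23 higher with a median of 0.049, which was 0.024 without WT female 2, and none at an unadjusted p under 0.05. In males their median was -0.041, with 15 of 23 lower. Grin1, the obligate subunit of NMDA receptors, was at 4.87, 4.80 and 4.94 in AS and at 4.84, 4.78 and 4.71 in WT, a difference of 0.096 ± 0.058 with overlapping groups. Grik1, a kainate receptor subunit, went the other way at -0.124 ± 0.071. GABA receptor genes had 8 of 13 higher, and postsynaptic scaffolds 14 of 21, with medians of 0.026 and 0.017. Without the library labelled WT female 1 these were 0.017 and 0.049; the first was 0.0065 without AS female 1, and the second -0.0058 without WT female 3 and -0.0050 without AS female 3. Of 66 potassium channel genes 45 were higher, with a median of 0.031, which was 0.0099 without WT female 2 and 0.019 without AS female 1. Male medians were -0.056 for potassium channels, -0.044 for postsynaptic scaffolds and 0.045 for GABA receptors.

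Oligodendrocyte and myelin genes had 20 of 23 higher in AS, with a median of 0.140. None had an unadjusted p under 0.05 and in none were the groups apart. The list mean was 3.64, 3.59 and 3.81 in AS and 3.50, 3.82 and 3.44 in WT, so WT female 2 was as high as the highest AS library. Tspan2, a membrane protein of myelin-forming cells, was at 3.60, 3.66 and 3.82 in AS and at 3.38, 3.55 and 3.61 in WT, a difference of 0.182 ± 0.096. Mog, a protein of the outer myelin surface named after its values were seen, had 0.227 ± 0.165. The lowest difference of the list, -0.681, was that of Enpp2, which the choroid plexus list also holds. The median ran from 0.049 without AS female 3 to 0.221 without AS female 2, and it was 0.091 without the library labelled WT female 1.

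Interferon-stimulated genes had 26 of 29 higher in AS, with a median of 0.116, and AS female 2 stood far above the other 5 libraries. The list mean was 1.70, 2.59 and 1.74 in AS and 1.83, 1.94 and 1.81 in WT. AS females 1 and 3 thus lay below all WT libraries and AS female 2 above all of them. Isg15, a ubiquitin-like modifier that interferon induces, is an example named after its values were seen, at 1.77, 3.10 and 1.53 in AS and at 1.77, 1.88 and 1.60 in WT. Xaf1, an interferon-induced gene of cell death, was at 2.06, 3.09 and 2.03 in AS and at 1.93, 2.13 and 1.92 in WT. Without AS female 2 the median was -0.113, with 22 of 29 genes lower. Major histocompatibility genes had 9 of 15 higher with a median of 0.037, and a median of -0.123 without AS female 2. The genes of this system have close copies that the counting could split.

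Choroid plexus genes were lower in AS for 27 of 27 tested (32 listed), with a median of -0.666, the largest of the 45 lists with 3 or more tested members. None had an unadjusted p under 0.05 and none had groups apart. The list mean was 1.18, 3.35 and 1.29 in AS and 2.85, 3.44 and 1.47 in WT, the same order of high and low libraries as for Ttr. Kcnj13, a potassium channel of this epithelium, was at 0.417, 3.77 and 0.717 in AS and at 3.04, 4.02 and 1.37 in WT. Slc13a4, a sulfate transporter, was at 0.883, 2.73 and 0.717 in AS and at 2.27, 2.45 and 1.85 in WT. The difference thus followed 1 high library among the AS mice against 2 among the WT mice. Without AS female 2 the median was -1.37, without WT female 2 it was -0.149, and without the library labelled WT female 1 it was -0.463. In the 3 libraries with low Ttr it was -0.079, and with Ttr as a covariate -0.0015. Ttr is itself on this list and the other members mark the same tissue. These 2 values and the shared order of libraries are therefore not separate evidence. In males the median was 0.235, with 1 of 27 genes lower.

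Meningeal fibroblast genes had 17 of 19 lower in AS, with a median of -0.235. Ogn, a matrix proteoglycan, was at 1.08, 2.43 and 0.449 in AS and at 1.94, 2.16 and 2.54 in WT, a difference of -0.891 ± 0.459. The highest library for the list mean was WT female 3 at 2.68, followed by AS female 2 at 2.64, and the others lay between 1.69 and 2.23. The order therefore differed from that of Ttr, and without WT female 3 the median was 0.017. Ependymal genes of motile cilia had 13 of 19 lower with a median of -0.155, which was -0.0096 with Ttr as a covariate, -0.046 without WT female 2 and -0.058 without the library labelled WT female 1. Drc1, a regulator of the ciliary dynein, was at 2.00, 2.01 and 1.79 in AS and at 2.18, 2.21 and 2.15 in WT, a difference of -0.246 ± 0.094 with groups that did not overlap. All 7 tested blood genes were higher in AS, with a median of 0.225, which was 0.065 without WT female 2, 0.095 without AS female 2 and -0.070 in the 3 libraries with low Ttr. Male medians were 0.028 for meningeal fibroblasts, 0.098 for ependyma and -0.254 for blood.

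Housekeeping groups showed small differences. Cytosolic ribosomal protein genes had 58 of 77 lower with a median of -0.032, and 8 lower and 0 higher had groups that did not overlap, against 3.98% and 5.08% of all genes. The median was -0.055 without the library labelled WT female 1, -0.013 without WT female 3 and 0.0018 in males. Rpl3 was at 6.10, 6.08 and 6.04 in AS and at 6.14, 6.14 and 6.20 in WT, a difference of -0.087 ± 0.041. Nuclear-encoded subunits of oxidative phosphorylation had 54 of 74 lower with a median of -0.025, which lay between -0.0435 without AS female 1 and -0.0087 without WT female 3. Ndufc2, a subunit of respiratory complex I, was at 4.81, 4.76 and 4.65 in AS and at 4.85, 4.85 and 4.98 in WT, a difference of -0.153 ± 0.054. Mitochondrial ribosomal protein genes had 45 of 77 lower with a median of -0.016; 4 lower and 1 higher had an unadjusted p under 0.05, against 1.62% and 1.45% of all genes. That median was -0.0031 without WT female 3. Mrpl47 led these at -0.231 ± 0.072. Proteasome subunits had 20 of 35 higher with a median of 0.012, which was 0.0064 without the library labelled WT female 1 and -0.00093 without AS female 1. Psmc2, an ATPase of the regulatory particle, had 0.077 ± 0.034 with groups that did not overlap.

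**Figure D4:**
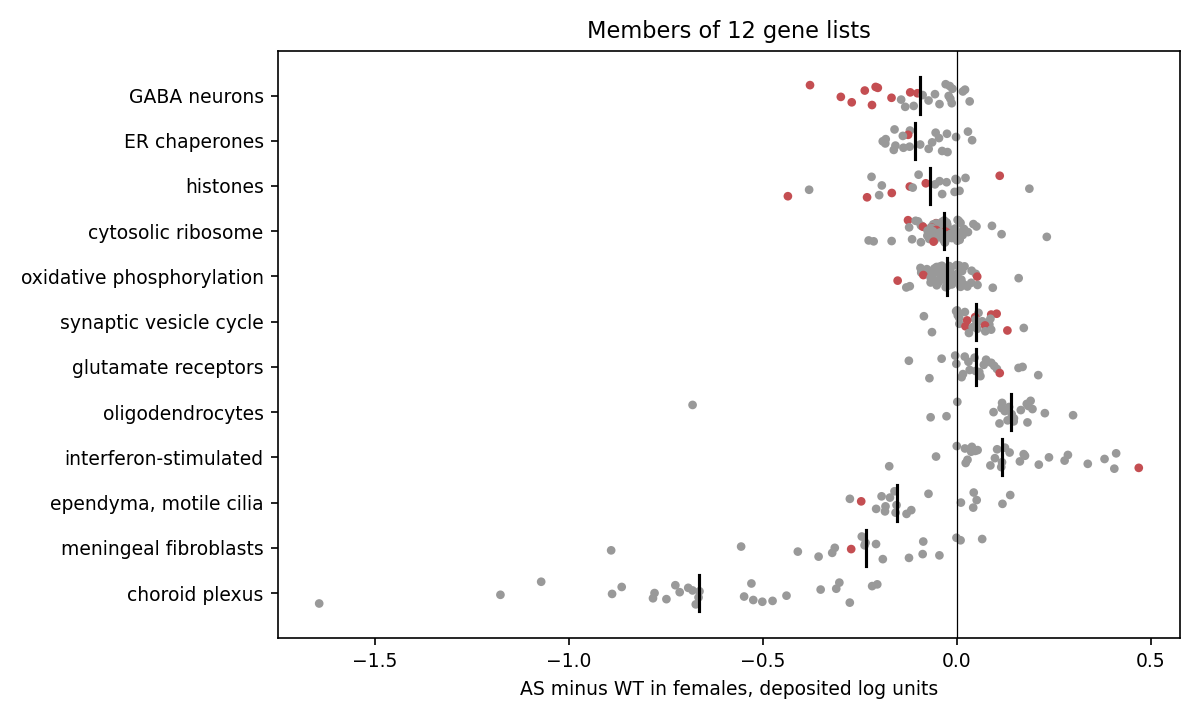
AS minus WT in females for every tested member of 12 gene lists, with black bars at list medians; red points are genes whose AS and WT libraries did not overlap and grey points are the rest. The choroid plexus list spreads from -1.64 to -0.205 without a red point, and the GABA neuron list has 10 red points, all below 0.

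Families grouped by the letters that start a symbol gave a wider survey. Of 198 families with 8 or more tested autosomal members, together 4046 genes, 12 had at least 80% of members on a single side of 0, 8 of them higher and 4 lower in AS. How many families would reach this share with unrelated signs was not computed. The 12 are therefore a description and not a result about these families. The median of 11 of these 12 kept its sign with each female library left out. The exception was Kmt, the lysine methyltransferases, which went to -0.020 without WT female 2. No member of the 12 was called. Members named here were chosen after their values were seen.

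The 8 genes starting with Rtn were all higher in AS, with a median of 0.053 and a range of 0.041 to 0.063 with each female library left out. They are reticulons, which shape the ER, and receptors of the reticulon Nogo, except Rtn4ip1, a mitochondrial protein that is neither. The largest were Rtn1 at 0.081 and Rtn2 at 0.077. Synaptotagmins (Syt), calcium sensors and adaptors of vesicle fusion, had 13 of 15 higher with a median of 0.027, and Syt6 at -0.135 and Syt9 at -0.108 were the exceptions. Background potassium channels (Kcnk) had 7 of 8 higher with a median of 0.099. Subunits of voltage-gated calcium channels (Cacna) had 9 of 11 higher with a median of 0.054, led by Cacna1e at 0.151. The Alg genes, which build the glycan that is attached to proteins in the ER, had 9 of 11 higher with a median of 0.052. Inositol phosphatases (Inpp) had 8 of 10 and beta protocadherins (Pcdhb), adhesion proteins of neurons, 12 of 14 higher, with medians of 0.039 and 0.032. Male medians were below 0 for Kcnk (-0.072), Cacna (-0.076), Inpp (-0.083), Kmt (-0.041) and Pcdhb (-0.017). They were above 0 for Rtn (0.037), Syt (0.022) and Alg (0.0060).

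On the lower side, the cilia and flagella associated genes (Cfap) had 15 of 18 with a median of -0.136, which was -0.091 with Ttr as a covariate and -0.048 in the 3 libraries with low Ttr. The histone genes named Hist had 10 of 12 lower with a median of -0.144. The Bbs genes, whose proteins carry cargo into primary cilia, had 7 of 8 lower with a median of -0.046, and the subunits of the ER membrane protein complex (Emc) had 8 of 9 lower with a median of -0.034. Of these 4 families only Hist had members with an unadjusted p under 0.05, namely the 4 already counted among the histone genes, against 1.62% of all genes. Male medians were 0.043 for Cfap and 0.049 for Bbs, and -0.211 for Hist and -0.0040 for Emc.

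AS female 2 departed most from its group among the 6 libraries. It was the farthest of its group from the group median in 39.1% of genes, against 27.7% for AS female 1 and 33.2% for AS female 3. Among the WT females the shares were 31.8% for females 1 and 2 and 36.4% for female 3. The spread of deviations from the other libraries of the group was 0.252 (SD over genes) in AS female 2, 0.251 in WT female 3, 0.228 in WT female 2 and 0.201 to 0.209 in the rest. Without AS female 2, 703 autosomal genes had an unadjusted p under 0.05 (5.39%) and none was called. With each of the other 5 left out the number lay between 299 (AS female 3) and 452 (the library labelled WT female 1). Leaving out a library turned the sign of 13.02% to 16.6% of all differences.

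A call appeared without 3 of the libraries, each for 1 small RNA. Without AS female 1 it was Gm24166, at 0.223, 3.64 and 3.66 in AS and at 1.00, 0.397 and 0.648 in WT. Without the library labelled WT female 1 it was Snord15b, at 0.194, 0.759 and 0.365 in AS and at 0.191, 2.97 and 2.97 in WT. Without WT female 3 it was Gm24409, at 0.451, 0.703 and 0.724 in AS and at 2.55, 2.64 and 0.121 in WT. In each the library left out was at the level of the other genotype. Each RNA had high and low values within 1 of its groups and only low values in the other.

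**Figure D5:**
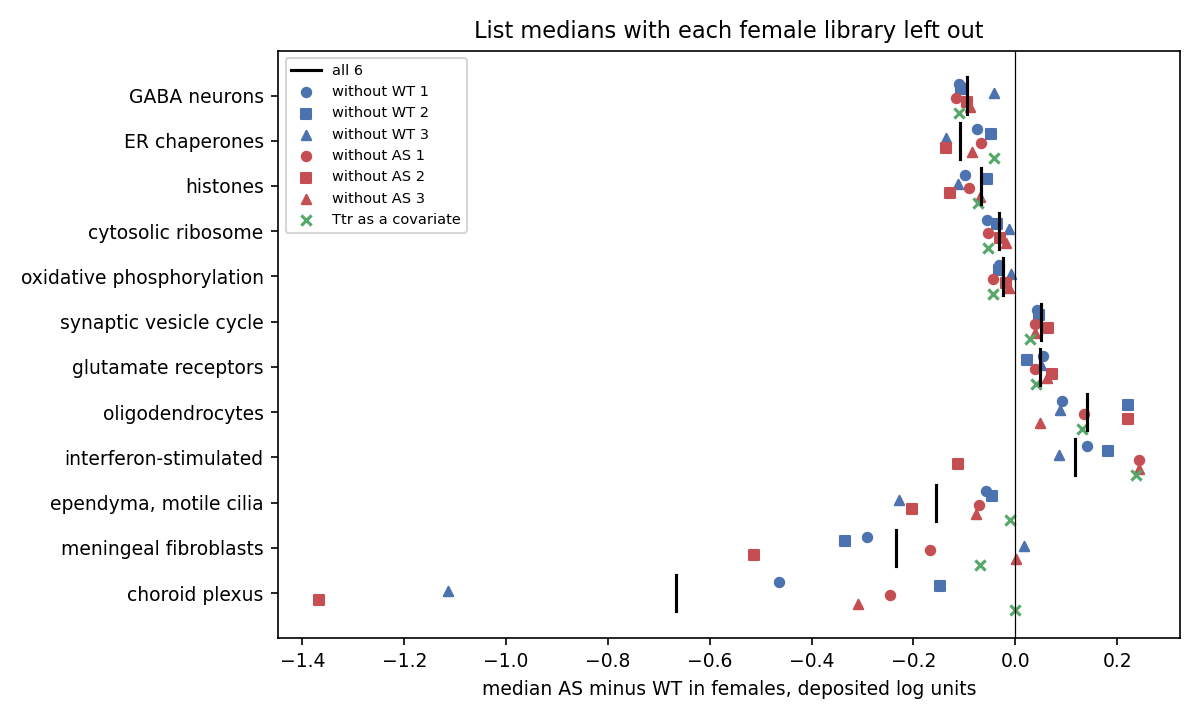
Median AS minus WT in females of 12 gene lists with all 6 libraries (black bar), without each library in turn (symbols) and with Ttr as a covariate (green cross). The choroid plexus median moves between -1.37 and -0.149 with a library left out. The interferon list lies below 0 only without AS female 2, and the meningeal fibroblast list reaches 0.017 without WT female 3. All other lists, choroid plexus included, stay on their side of 0.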

How the data were processed

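Values were taken from the deposited table of the series, which gives 13951 genes in 12 libraries. The deposited values run from 0.100 to 10.08 and were read as the natural log of an RSEM abundance plus 1. Neither the abundance unit nor the base, constant and scaling of the log are given in the sources used here. Per the submitters' processing notes the tools were Trimmomatic, Bowtie2 and RSEM with GRCm38 (mm10), with no versions. No counts are given, so depth and counting error are unknown. Symbols and coordinates came from GENCODE vM21 on GRCm38, in which 13735 identifiers matched and 216 did not. Promoter sequences came from RefSeq.

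Genes with a mean deposited value under 0.7 were left out (190 of 13951), which left 13761. limma 3.58.1 (R 4.3.3) was run on the 12 libraries with 1 mean per group of sex and genotype, a variance trend and 8 residual degrees of freedom, and p-values were adjusted by Benjamini-Hochberg over all 13761 genes. The script was tested on simulated data. Gene lists and symbol families were described by counts and medians, with no test. Named are, in each direction, the 12 autosomal genes with the smallest p and the 8 with the largest difference among those whose groups do not overlap, predicted genes aside, up to 4 members per list by p, Ttr and Ube3a; Hsp90b1, Isg15, Mog and members of symbol families were added after their values were seen. A few genes that the rule names are not reported here. The genes, lists and rules were chosen with earlier results of these data known. The histone list was corrected after values were seen, when a histocompatibility gene caught by its name pattern was removed. Alternatives were other filters, an added constant of 5, only the female libraries, each library left out, low-Ttr libraries only, Ttr or the choroid plexus mean as a covariate, library weights, a robust prior and other scalings.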

Additional observations from a re-analysis of the deposited data

How the results depend on the processing

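Ube3a and the genes named by small p or wide difference, 37 together, kept their direction under all 615 alternative values, and none was called in any. All but Ube3a were selected for groups that did not overlap, so leaving out libraries could not turn their sign. Genes named only as members of lists or symbol families were not among the 37. The number of called autosomal genes was 0 with all libraries, 0 to 1 with each library left out and 4 without the 3 female libraries with high Ttr (Gm23257 higher, Snord15b, Snora52 and Vaultrc5 lower), a fit that leaves 1 WT library, assumed to vary like the other groups. The number with an unadjusted p under 0.05 was 401, 299 to 703 with each library left out, 691 with library quality weights and 624 without the high-Ttr libraries. For the difference between the sexes the number called was 0, and 0 to 1 with each library left out, the 1 arising without the library labelled WT female 1, WT female 3 or WT male 2; it was 4 without the high-Ttr libraries. Of 765 alternative list medians 732 moved by less than the spread of the list mean between replicates. That spread is wide for lists that follow single libraries, so this count does not show them to be stable. The interferon median counted as unmoved though it went from 0.116 to -0.113 without AS female 2. So did the choroid plexus median, which went from -0.666 to -0.0015 with Ttr as a covariate. Without the high-Ttr libraries the medians were 0.135 for pyramidal neurons, 0.263 for dentate granule cells, -0.308 for ventral and 0.083 for dorsal hippocampus, -0.161 for GABA neurons, 0.327 for oligodendrocytes, 0.051 for mural cells, 0.083 for ependyma, -0.793 for meningeal fibroblasts, -0.070 for blood, -0.155 for striatum, -0.147 for thalamus, -0.072 for heat shock, -0.043 for the TRiC chaperonin, -0.062 for early genes, 0.085 for postsynaptic scaffolds, -0.0015 for break repair, -0.077 for the cytosolic ribosome and -0.329 for small RNAs. With a filter at 1.8 they were 0.052 for oligodendrocyte precursors and 0.071 for collagens. With Ttr as a covariate they were -0.0096 for ependyma, 0.0083 for break repair and 0.0075 for sorting receptors and retromer, and with the choroid plexus mean 0.0075, 0.0066 and 0.0028. With each female library left out, medians ran from -0.017 to 0.061 for dorsal hippocampus, -0.066 to 0.069 for mural cells, 0.024 to 0.071 for glutamate receptors, -0.011 to 0.035 for break repair and -0.037 to 0.0067 for sorting receptors and retromer. The cause of these shifts was not tested. No paired analysis was possible because the labels give the groups no common replicate numbers: those used here follow accession order, and the library numbers in the column names are shared by no 2 libraries. The precision is limited by 3 mice per group, and depth is unknown.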

Other observations

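Genes that respond to glucocorticoids had 17 of 23 lower in AS females, with a median of -0.069 and 3 lower with groups that did not overlap, against 3.98% of all genes. The median was -0.037 without WT female 3 and -0.128 without WT female 2. Nfkbia, the inhibitor of NF-kappa-B, was at 2.29, 2.42 and 2.46 in AS and at 2.49, 2.81 and 2.75 in WT, a difference of -0.297 ± 0.133. Ddit4, an inhibitor of mTOR, was at 3.35, 3.26 and 3.30 in AS and at 3.46, 3.54 and 3.52 in WT, a difference of -0.206 ± 0.120. Both had every AS library below every WT library, and neither was called. In males 20 of the 23 were lower, with a median of -0.214. Early genes of neuronal activity had 20 of 28 higher with a median of 0.061, which was -0.022 without the library labelled WT female 1. In males their median was -0.099, with 21 of 28 lower. Clock genes had 9 of 19 higher with a median of -0.014, which was -0.025 without the library labelled WT female 1 and 0.013 without WT female 2.

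Microglial genes had 14 of 19 higher with a median of 0.051, but without AS female 2 the median was -0.0125 with 10 of 19 lower, and without the library labelled WT female 1 it was 0.079. C1qa, a chain of complement C1q, was at 3.66, 3.85 and 3.69 in AS and at 3.67, 3.42 and 3.45 in WT, a difference of 0.222 ± 0.073 (unadjusted p = 0.0105) with groups that overlapped through the library labelled WT female 1. Endothelial genes had 9 of 15 higher with a median of 0.0060, which was -0.068 without AS female 2 and 0.040 without the library labelled WT female 1. Zinc finger genes named Zfp had 188 of 326 higher with a median of 0.011, and collagen genes 13 of 24 with a median of 0.0061. Without AS female 1 the first was -0.0047, and without the library labelled WT female 1 the second was -0.024. Among 17 small RNAs 9 were higher and 8 lower. Snora34, a small nucleolar RNA, was at 0.633, 3.40 and 3.44 in AS and at 0.798, 0.910 and 0.786 in WT. AS female 1 was at the level of WT, so the groups overlapped.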
